A study of Mus musculus with 6 samples.

Results

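Immune checkpoint ligands and suppressive enzymes, 10 genes in all, were followed in cancer-associated fibroblasts (CAFs), the fibroblasts of tumour stroma, after silencing of the transcription factor STAT3. They were chosen by symbol, and all 10 are among the 24015 gene symbols of the deposited count table. They are 5 ligands of the B7 family (Cd274, Pdcd1lg2, Cd80, Cd86 and Cd276), the galectin Lgals9, and the enzymes Ido1, Nt5e, Arg1 and Nos2. The cells were primary CAFs grown from the mammary tumours of NeuT mice (BalbC background), whose transgene is an activated rat Her2/neu oncogene. One group was given nanoparticles carrying anti-Stat3 siRNA and the other nanoparticles carrying control siRNA, both at 1 ug/mL for 72 hours, with 3 libraries each of poly(A)-selected RNA. No library of untreated cells is among the samples, and the sources used here do not state whether a number stands for a mouse, a culture or a day. The age of the mice is not given in them either.

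Checkpoint ligands are surface proteins by which tumour and stromal cells hold back or support T cells. PD-L1 (Cd274) and PD-L2 (Pdcd1lg2) bind the inhibitory receptor PD-1, while CD80 and CD86 bind both the activating receptor CD28 and the inhibitory receptor CTLA-4. Suppressive enzymes act through metabolites: IDO1 breaks down tryptophan, arginase 1 breaks down arginine, the inducible nitric oxide synthase makes nitric oxide from arginine, and CD73 (Nt5e) makes adenosine. PD-L1 is a known target of interferon gamma through IRF1, and STAT3 has been reported as an activator of it in tumour cells.

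Total counts were 12998168 to 16043022 in the anti-Stat3 libraries and 14676958 to 18683852 in the control libraries. Anti-Stat3 and control libraries that carry the same number resembled each other, and are called a pair. Levels are CPM, read counts scaled to library size with TMM factors. Changes are on the log2 scale, with the anti-Stat3 value over the control value. Stat3 itself had 34.7, 81.8 and 78.8 CPM in anti-Stat3 libraries 1 to 3, against 220, 359 and 404 CPM in control libraries 1 to 3, so the label held in every pair. All 15 fibroblast markers were detected in every library. Among them, Col1a1 and Fap were lowest in pair 1 with either siRNA, at 9169 and 3.13 CPM in the anti-Stat3 library and 7410 and 4.19 CPM in the control library, whereas Acta2 and Tagln were highest there, at 8064 and 4462 CPM in the anti-Stat3 library and 6467 and 3992 CPM in the control library. Cd3d, Cd3g, Cd247, Cd8a and Ncr1, markers of T and natural killer cells, had 0 counts in all 6. Others of the 13 listed markers of these cells had reads, and all 13 summed to at most 1.68 CPM in anti-Stat3 and 1.22 CPM in control libraries. Lck had the most, at 0.689 to 1.28 CPM with anti-Stat3 siRNA and 0.779 to 1.01 CPM with control siRNA. The summed level of 20 macrophage markers was 44.5 CPM in anti-Stat3 library 1, and 1697 and 2788 CPM in libraries 2 and 3, against 48.9, 1781 and 2441 CPM in control libraries 1 to 3. In bulk RNA, fewer cells of a type and less RNA per cell cannot be told apart.

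The stretches before the start sites of Cd274 and Lgals9 are shown because both genes were higher in all pairs and both are known to be induced by interferon gamma. Both are 250 bases upstream of the RefSeq start, on build GRCm38.p6, from chr19:29367188-29367437 on the plus strand for Cd274 and chr11:78984925-78985174 on the minus strand for Lgals9. Both strands were searched for the interferon-gamma-activated site TTCNNNGAA, which STAT dimers bind, and for the interferon-stimulated response element GAAANNGAAA. Capitals mark a match.
Cd274: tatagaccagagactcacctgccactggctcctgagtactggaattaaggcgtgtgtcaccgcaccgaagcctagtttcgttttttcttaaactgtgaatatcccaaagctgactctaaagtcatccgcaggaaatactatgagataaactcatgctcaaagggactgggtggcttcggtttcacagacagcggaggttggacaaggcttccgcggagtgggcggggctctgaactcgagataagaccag
Lgals9: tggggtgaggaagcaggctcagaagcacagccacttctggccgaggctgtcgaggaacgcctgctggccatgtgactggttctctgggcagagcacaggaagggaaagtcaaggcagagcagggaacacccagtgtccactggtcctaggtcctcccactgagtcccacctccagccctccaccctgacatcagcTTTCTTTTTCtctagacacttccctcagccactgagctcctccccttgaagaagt
The Lgals9 stretch holds 1 response element, read on the opposite strand, whose first base lies 55 bases before the start. The Cd274 stretch holds neither motif. Cd80, also higher in all pairs, was searched in the same way and holds neither, nor do Cd276, Nt5e and Pdcd1lg2. The stretches shown were picked with the values of their genes known. Among 32851 RefSeq promoter stretches of this length, 2.98% hold the response element and 7.02% the activated site.

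**Figure D1:**
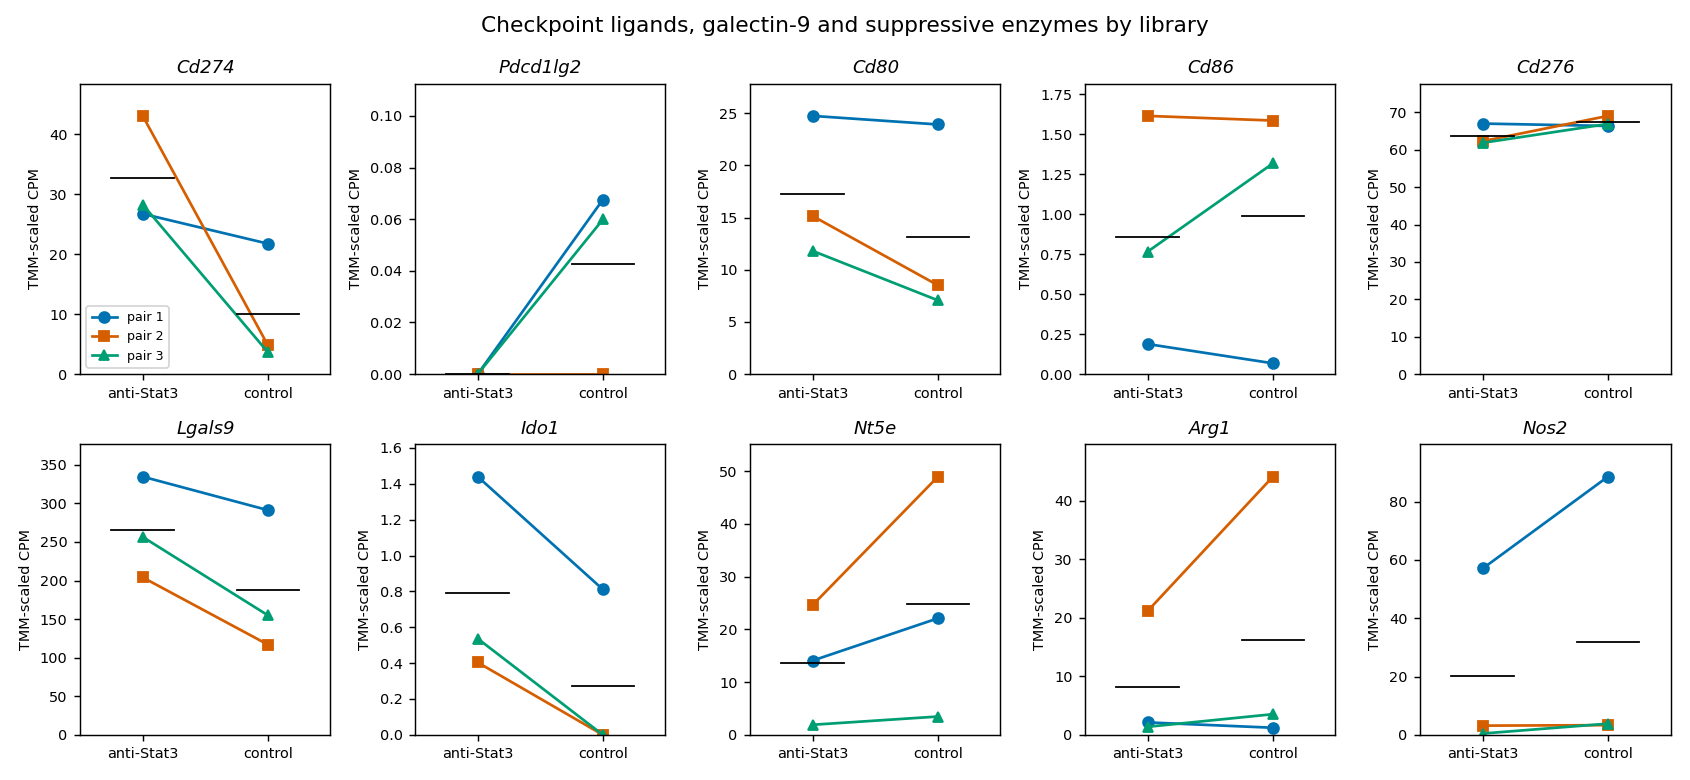
Level of each of the 10 genes in CPM (vertical axes, from 0) in the anti-Stat3 libraries (left) and the control libraries (right) of each panel. Lines join libraries of the same number and black bars are group means. Cd274 is the member whose groups do not overlap, while Nt5e, Arg1 and Nos2 differ more between pairs than between siRNAs.

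Of the 10 genes, 8 had enough counts to be tested. With the group as the only term, the quasi-likelihood test of edgeR called 0 of the 8 at an adjusted p of 0.05, as it called 0% of all 13284 genes tested. At an unadjusted p under 0.05 it had 1 of the 8, Cd274, against 1.77% of all genes. With the pair as a block, edgeR called 0 of the 8, against 0.0602% of all genes, and had 4 at an unadjusted p under 0.05, where 10.8% of all genes lay. DESeq2 with the group alone also called 0, against 0.128% of all genes, with 1 at an unadjusted p under 0.05 against 2.22%. DESeq2 with the pair as a block called 2, where it called 1.66% of all genes, and had 4 at an unadjusted p under 0.05, against 8.05%. The 2 that it called were Lgals9, which rose, and Nt5e, which fell. All 3 pair changes were positive in Cd274, Cd80 and Lgals9, and all 3 were negative in Nt5e and Nos2. Among all tested genes 17.3% were higher and 16.5% lower in all 3 pairs. The median log2 change of the 8 was -0.15 in edgeR with the group alone, against -0.003 for all tested genes.

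Cd274, the gene of PD-L1, had 26.7, 43.1 and 28.3 CPM in anti-Stat3 libraries 1 to 3, against 21.8, 4.81 and 3.65 CPM in control libraries 1 to 3. Every anti-Stat3 library was above every control library, which held for 2.45% of all tested genes. Control library 1 lay close to the anti-Stat3 libraries and the other controls far below them. The ratio within pairs was 1.23 in pair 1, 8.95 in pair 2 and 7.74 in pair 3. The 95% counting intervals of these ratios were 1.06 to 1.42, 7.18 to 11.3 and 5.89 to 10.3, so that the interval of pair 1 lay apart from both others. Such intervals cover counting error only. The group means were 32.7 ± 9.01 CPM with anti-Stat3 siRNA and 10.1 ± 10.1 CPM with control siRNA (SD, n = 3 each).

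The change in Cd274 did not pass over all genes in any fit with all 6 libraries. In edgeR with the group alone the log2 change was 1.70 ± 0.70 (SE), with an adjusted p of 1.00 (0.049 before adjustment). With the pair as a block it was 2.05 ± 0.53 in edgeR and 2.19 ± 0.83 in DESeq2 (SE), with an adjusted p of 0.203 in both. Without pair 1 the blocked log2 change was 3.06 and passed in edgeR (adjusted p = 1.2e-07) and in DESeq2 (adjusted p = 2.0e-23). These fits without pair 1 called 704 genes of the series in edgeR and 432 in DESeq2, against 8 and 220 with all 6 libraries. The calls without pair 1 given below for Cd80, Lgals9, Nt5e and Arg1 come from the same fits. Without pair 2 or pair 3 it was 1.48 or 1.64 in blocked edgeR and did not pass. Without control library 1 alone, the change in edgeR with the group as the only term was 2.94, with an adjusted p of 0.054. Over the 19 alternatives its adjusted p was 2.0e-23 to 1.

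PD-L2 transcripts were at or under the counting limit. Pdcd1lg2, on chromosome 19 beside Cd274, had 0 counts in each anti-Stat3 library, and 1, 0 and 1 counts in control libraries 1 to 3. Since 3 counts correspond to 0.188 to 0.23 CPM in the anti-Stat3 libraries, a count of 0 there does not exclude a level below that. No ratio is given.

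The ligands of CD28 and CTLA-4 differed from each other in level and in how they varied between pairs. Cd80 had 24.7, 15.1 and 11.8 CPM in anti-Stat3 libraries 1 to 3, against 23.9, 8.51 and 7.07 CPM in control libraries 1 to 3. Both libraries of pair 1 were the highest, and the groups overlapped. The ratio was 1.03 in pair 1, with a counting interval of 0.894 to 1.20, 1.78 in pair 2 and 1.67 in pair 3. The log2 change was 0.51 ± 0.18 (SE) in blocked edgeR, with an adjusted p of 0.343, and 0.39 ± 0.53 with the group alone. It passed in blocked edgeR without pair 1 (0.79, adjusted p = 0.033) but not in blocked DESeq2 without that pair (adjusted p = 0.313), and over all alternatives the adjusted p was 0.033 to 1.

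Cd86 had few counts, and in pair 1 it lay at the counting limit. It had 3, 24 and 10 counts in anti-Stat3 libraries 1 to 3, against 1, 30 and 22 counts in control libraries 1 to 3, or 0.188 to 1.61 CPM with anti-Stat3 siRNA and 0.0676 to 1.59 CPM with control siRNA. It was lowest in both libraries of pair 1, where the macrophage markers C1qa, C1qb and C1qc were also at 0 to 0.125 CPM. Other macrophage markers were detected in pair 1. Among them, Cd14 had 19.2 CPM in the anti-Stat3 and 24.2 CPM in the control library, and Lyz2 11.65 and 10.95 CPM. The part of macrophage transcripts in the level of Cd86 was not tested. The log2 change was -0.18 ± 0.40 (SE) in blocked edgeR (adjusted p = 0.903). Cd80 was highest in pair 1, where the macrophage sum was 44.5 and 48.9 CPM, and the part of macrophage transcripts in its level was not tested either.

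Cd276, which encodes B7-H3, an inhibitory member of the B7 family with no settled receptor, was the steadiest of the 8 tested. It had 67.0, 62.3 and 61.9 CPM in anti-Stat3 libraries 1 to 3, against 66.4, 69.1 and 66.9 CPM in control libraries 1 to 3. Anti-Stat3 library 1 lay among the controls, so the groups overlapped. The log2 change was -0.08 ± 0.10 (SE) in blocked edgeR, with an adjusted p of 0.808. Its highest control library was 1.04 times its lowest, whereas the control libraries of 4.76% of all tested genes differed by 10-fold or more. Cd86, Nt5e, Arg1 and Nos2 belong to those genes.

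Lgals9 encodes galectin-9, a secreted lectin that binds TIM-3 on T cells. It was the most abundant of the 10 genes in every library, in CPM and also per length of transcript. It had 335, 204 and 257 CPM in anti-Stat3 libraries 1 to 3, against 291, 117 and 155 CPM in control libraries 1 to 3. As with Cd80, control library 1 exceeded anti-Stat3 libraries 2 and 3, so the groups overlapped. The ratio was 1.15 in pair 1, with a counting interval of 1.10 to 1.20, 1.75 in pair 2 and 1.65 in pair 3. In blocked DESeq2 Lgals9 rose by 0.58 ± 0.16 on the log2 scale (SE, adjusted p = 0.032). In blocked edgeR the change was 0.58 ± 0.15 and did not pass (adjusted p = 0.201), and with the group alone it was 0.50 ± 0.38. The DESeq2 call was kept without pair 1 (adjusted p = 0.0027) and lost without pair 2 or pair 3 (0.46 and 0.51, adjusted p = 1 in both). Across all settings tried its adjusted p was 0.0027 to 1.

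**Figure D2:**
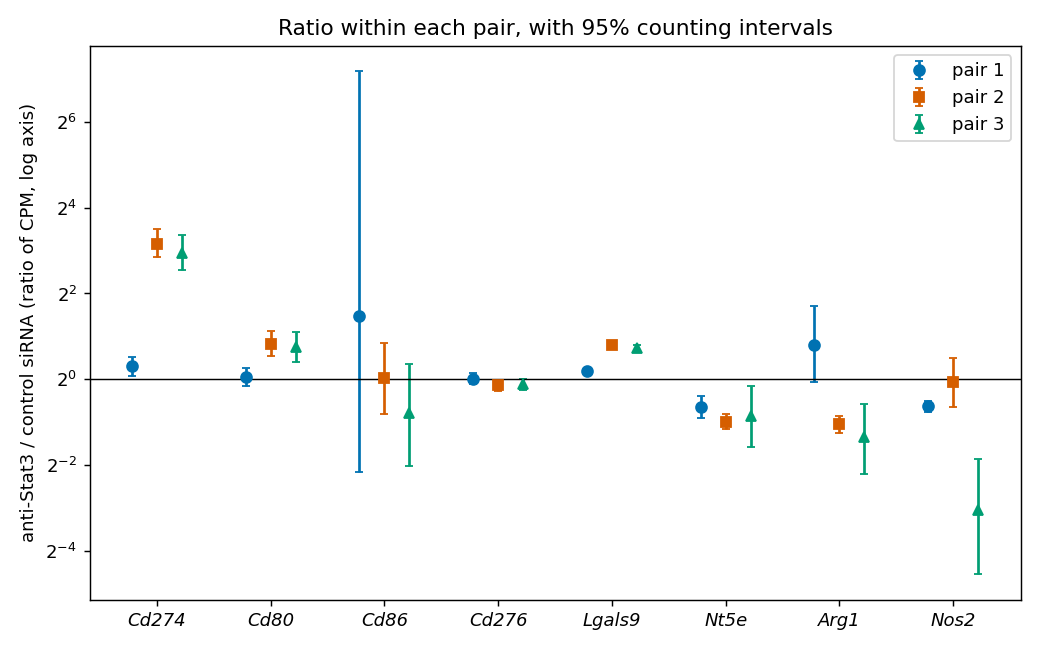
Ratio of anti-Stat3 over control siRNA CPM within each pair (vertical axis, log scale) for the 8 tested members. Bars are 95% counting intervals, which leave out differences between cultures. Cd274, Cd80 and Lgals9 lie nearer to 1 in pair 1 than in pairs 2 and 3, and Nt5e lies below 1 in all pairs.

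Among the enzymes, Nt5e had the most even change. Nt5e encodes CD73, the surface enzyme that makes adenosine from AMP. It had 14.1, 24.6 and 1.92 CPM in anti-Stat3 libraries 1 to 3, against 22.1, 49.0 and 3.47 CPM in control libraries 1 to 3. The controls spanned a 14.1-fold range, and each anti-Stat3 library lay below its own control. The ratio was 0.638 in pair 1, 0.503 in pair 2 and 0.552 in pair 3, with counting intervals that all lay below 1 (0.536 to 0.758, 0.444 to 0.568 and 0.331 to 0.896). The mean pair change was -0.82 ± 0.17 (SD, n = 3 pairs).

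In blocked DESeq2 Nt5e fell by 0.83 ± 0.21 on the log2 scale (SE, adjusted p = 0.0084). Blocked edgeR gave -0.83 ± 0.13 with an unadjusted p of 3.5e-04, the rank 27 of all tested genes, and an adjusted p of 0.145. With the group alone edgeR gave -0.87 ± 1.09 (adjusted p = 1.00). With each pair left out in turn, the DESeq2 change was -0.94 without pair 1, -0.74 without pair 2 and -0.82 without pair 3, and the call was lost each time (adjusted p = 0.064, 1 and 0.457). Blocked edgeR called Nt5e without pair 1 (adjusted p = 0.0093). Across all settings tried the adjusted p was 0.0084 to 1. The summed level of 14 epithelial markers had the same order over pairs as Nt5e, with 193, 519 and 54.8 CPM in anti-Stat3 libraries 1 to 3 and 196, 527 and 53.1 CPM in control libraries 1 to 3. Within pairs the tested epithelial markers had median log2 changes of -0.02, -0.04 and 0.03. Single markers differed from that, among them Krt19, which was lower after anti-Stat3 siRNA in each pair as Nt5e was, and Epcam, which was higher in each. The part of epithelial transcripts in the change of Nt5e was not tested.

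Arg1, arginase 1, moved in opposite directions between pairs. It had 2.13, 21.2 and 1.38 CPM in anti-Stat3 libraries 1 to 3, against 1.22, 44.1 and 3.53 CPM in control libraries 1 to 3. Both libraries of pair 2 stood above all others. So did the summed epithelial markers, though not Krt5, Krt14 or Krt19 among them, and their part in it was not tested. Pair 1 had the anti-Stat3 library higher, on 34 against 18 counts, with a ratio of 1.75 and a counting interval of 0.961 to 3.29. In pairs 2 and 3 the ratio was 0.480 (0.420 to 0.547) and 0.390 (0.217 to 0.671). The log2 change was -0.75 ± 0.33 (SE) in blocked edgeR (adjusted p = 0.471). Without pair 1 it was -1.13 and passed in blocked edgeR (adjusted p = 0.0036) and blocked DESeq2 (-1.16, adjusted p = 0.012), and over all alternatives the adjusted p was 0.0036 to 1.

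Nos2, the inducible nitric oxide synthase, was expressed mainly in pair 1. It had 57.1, 3.16 and 0.460 CPM in anti-Stat3 libraries 1 to 3, against 88.5, 3.33 and 3.83 CPM in control libraries 1 to 3. The ratio was 0.645 in pair 1, 0.949 in pair 2 and 0.120 in pair 3. The last rests on 6 against 64 counts, with a counting interval of 0.0424 to 0.276, while the interval of pair 2 spanned 1 (0.637 to 1.41). The log2 change was -0.82 ± 0.35 (SE) in blocked edgeR (adjusted p = 0.468) and did not pass in any fit. Il6, Ptgs2 and Cxcl1 were likewise highest in both libraries of pair 1, and Il6 there had 264 CPM with anti-Stat3 siRNA and 524 CPM with control siRNA.

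Nos2 and Arg1 compete for arginine, and which of them was the more abundant differed between pairs. Per kilobase of exon, Nos2 was 13.5 times Arg1 in anti-Stat3 library 1, with a counting interval of 9.61 to 19.7, against 36.8 times (23.2 to 62.2) in control library 1. It was 0.0753 times Arg1 in anti-Stat3 library 2 (0.0542 to 0.103), against 0.0381 times (0.0290 to 0.0493) in control library 2. In pair 3 it was 0.168 times Arg1 in the anti-Stat3 library (0.0547 to 0.443), against 0.548 times (0.379 to 0.794) in the control library. The ratio was thus lower after anti-Stat3 siRNA in pairs 1 and 3 and higher in pair 2, and its order over pairs was the same with either siRNA. The counting intervals of anti-Stat3 and control library lay apart in pairs 1 and 2 but overlapped in pair 3, so its direction there is not set beyond counting error.

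Ido1, which starts the breakdown of tryptophan, had too few counts to be tested. It had 23, 6 and 7 counts in anti-Stat3 libraries 1 to 3, against 12, 0 and 0 counts in control libraries 1 to 3. With 0 counts in the control library, the ratio has no upper limit in pairs 2 and 3, and its 95% counting interval began at 1.5 in pair 2 and at 1.84 in pair 3. In pair 1 the ratio was 1.78, with a counting interval of 0.848 to 3.92. All 3 anti-Stat3 libraries had Ido1 reads, and among the controls library 1 alone did.

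The order of the members per length of transcript was headed by Lgals9, with a median over the 6 libraries of 108 CPM per kilobase of exon and a range of 54.8 to 157. Cd276 followed at 18.2 (16.9 to 18.9) and Cd274 at 6.70 (1.01 to 11.9). Cd80 at 3.64 (1.91 to 6.68), Nt5e at 2.10 (0.223 to 5.69), Arg1 at 1.27 (0.546 to 19.8) and Nos2 at 0.812 (0.104 to 20.1) had ranges that overlapped each other and that of Cd274. Those of Arg1 and Nos2 also reached past Cd276, so the order below Lgals9 is not set beyond the spread over libraries, except that Cd276 exceeded Cd274, Cd80 and Nt5e in every library. Cd86, Ido1 and Pdcd1lg2 each stayed under 1 CPM per kilobase. Exon lengths came from an annotation of another build (GRCm38) than the counts (mm9). In that annotation Cd274 and Cd276 each share exonic sequence with a gene on the opposite strand (AC119228.1 and Gm10657). The strand setting of the counting is not stated in the labels, so reads of such neighbours may be among theirs.

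Genes of the list of PD-L1 regulators were called in both directions by blocked DESeq2. Of 33 listed, 31 were tested, of which 2 rose, 3 fell and 26 did not pass, against 0.873% of all genes called higher and 0.783% called lower. The median log2 change with the group alone was 0.04. Socs1, a feedback inhibitor of interferon signalling, rose by 1.38 ± 0.31 (SE), with 5.26, 9.02 and 32.6 CPM in anti-Stat3 libraries 1 to 3, against 3.58, 3.17 and 8.33 CPM in control libraries 1 to 3. Nlrc5, the transactivator of class I antigen presentation genes, rose by 3.12 ± 0.89, with 23.2, 66.0 and 58.9 CPM in anti-Stat3 libraries 1 to 3, against 11.7, 4.34 and 3.18 CPM in control libraries 1 to 3. Hif1a, a known activator of PD-L1 in hypoxia, fell by 0.90 ± 0.20, as did Socs3, by 1.83 ± 0.21, and Stat3, the target. Blocked edgeR called the last 2 alone, and edgeR with the group alone called 0 of the list, with 6 at an unadjusted p under 0.05, against 1.77% of all genes.

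Irf1, a factor by which interferon gamma induces PD-L1, had pair changes close to those of Cd274. It had 60.9, 181 and 227 CPM in anti-Stat3 libraries 1 to 3, against 45.1, 28.2 and 30.0 CPM in control libraries 1 to 3. The groups did not overlap, and control library 1 was the highest control, as for Cd274. The log2 pair changes were 0.43, 2.67 and 2.91 for Irf1 and 0.30, 3.13 and 2.91 for Cd274. Irf1 did not pass in blocked DESeq2 (adjusted p = 0.146). The receptor genes Ifngr1 and Ifngr2 and the kinase gene Jak2 had pair changes of -0.36 to 0.38 and did not pass. Ifng itself had 1, 1 and 0 counts in anti-Stat3 libraries 1 to 3 and 0 counts in each control library. These 5 genes, and Irf9 in the plot of pair changes, are named by their role, after their values were seen.

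**Figure D3:**
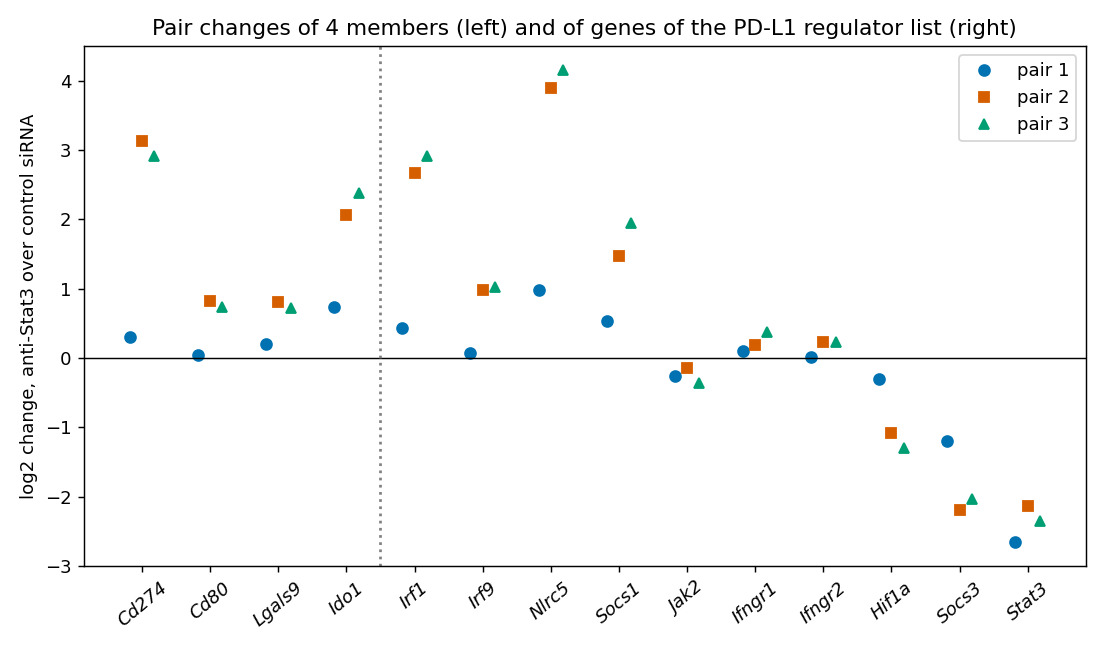
Log2 change within each pair (vertical axis) for Cd274, Cd80, Lgals9 and Ido1, left of the dotted line, and for 10 genes of the list of PD-L1 regulators, right of it. Irf1 and Nlrc5 show changes of 2.67 to 4.16 in pairs 2 and 3 and of 0.43 to 0.98 in pair 1. Ido1 values rest on 0 to 23 counts and are drawn in by the prior count of 2.

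Of 31 other checkpoint and costimulatory ligands, 20 were tested and 0 passed in blocked DESeq2, with 8 at an unadjusted p under 0.05, where 8.05% of all genes lay. The edgeR test with the block also called 0, with 7 at an unadjusted p under 0.05, against 10.8% of all genes. The median log2 change with the group alone was 0.26. The smallest p belonged to Tnfsf10, the death ligand TRAIL, at 2.20 ± 0.71 (SE, DESeq2 adjusted p = 0.091), and to H2-T23, which encodes the class I molecule Qa-1 that binds an inhibitory receptor of natural killer cells, at 1.39 ± 0.53 (DESeq2 adjusted p = 0.204). Lgals1, galectin-1, had 0.34 ± 0.14 and Cd200, the ligand of an inhibitory receptor on myeloid cells, -0.41 ± 0.17, and neither passed. H2-T23 had 50.0, 108 and 159 CPM in anti-Stat3 libraries 1 to 3, against 40.4, 34.0 and 35.2 CPM in control libraries 1 to 3, groups that did not overlap.

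Transcripts of the receptors of these ligands differed widely in level. Of 16 listed, 7 were tested and 0 passed in blocked DESeq2, which called 1.66% of all genes. At an unadjusted p under 0.05 it had 1 of the 7, against 8.05% of all genes. Blocked edgeR also called 0, against 0.0602% of all genes, with 1 at an unadjusted p under 0.05, against 10.8%. Pdcd1 and Ctla4, the genes of PD-1 and CTLA-4, had 1 count each over all 6 libraries. Sirpa, a receptor for CD47 that macrophages carry, had 29.6, 93.7 and 157 CPM in anti-Stat3 libraries 1 to 3, against 31.8, 112 and 174 CPM in control libraries 1 to 3, and Havcr2, the gene of TIM-3, had 5.37 to 10.7 CPM with anti-Stat3 siRNA and 4.92 to 12.4 CPM with control siRNA. Tnfrsf9, the receptor 4-1BB, had a change of -1.74 ± 0.56 (SE) with a DESeq2 adjusted p of 0.087. Sirpa (-0.17 ± 0.14), Tnfrsf18 (-0.29 ± 0.47) and Lag3 (-0.42 ± 0.72) followed and did not pass.

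Of 37 other enzymes and factors of suppression, 30 were tested, and in blocked DESeq2 2 fell, 0 rose and 28 did not pass, against 0.783% of all genes called lower and 0.873% called higher. Il6, a cytokine that activates STAT3, fell by 1.18 ± 0.17 (SE) and Alpl, a phosphatase that can also make adenosine, by 1.12 ± 0.31 on the log2 scale (adjusted p = 0.023). Alpl had 25.4, 2.62 and 2.30 CPM in anti-Stat3 libraries 1 to 3, against 35.7, 5.24 and 9.59 CPM in control libraries 1 to 3. Blocked edgeR called 0 of the 30, with 7 at an unadjusted p under 0.05, against 10.8% of all genes. Around Nt5e in the adenosine pathway, the adenosine receptor genes went different ways. Adora2b had pair changes of -0.55, -0.48 and -0.79, Adora2a of 0.42, 0.30 and 1.02, and Adora1 of -1.10, 0.12 and 1.14. Ada, which removes adenosine, had pair changes of 0.34, 0.82 and 0.50. Neither Adora2b nor Ada passed in blocked DESeq2 (adjusted p = 0.092 and 0.307), and Entpd1, which supplies AMP to CD73, had pair changes of 0.29, -0.08 and 0.32. These genes were picked by their role after their values were seen.

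The genes with the profile most like that of a member were found from the root mean square difference in log2 CPM over the 6 libraries, after each gene was centred on its own mean. For Cd274 they were Herc6, at 0.10, Parp14 and Pla2g4c, where the median gene differed by 1.38. For Lgals9 they were Ada at 0.08, Ifitm3 and Nuak2, and for Cd80 Tex15 at 0.14, Trim34a and Ptgs1. Nos2 lay nearest to Cxcl1 at 0.49, Cxcl5 and Il6, and Arg1 to Esyt3 at 0.48, Erbb3 and Afap1l1, where Erbb3 is one of the epithelial markers. For Nt5e they were Padi4 at 0.21, Prss22 and Slc1a1, and for Cd276 Med20 at 0.02 and Dnajb14. The genes nearest to a flat profile such as that of Cd276 are flat themselves.

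**Figure D4:**
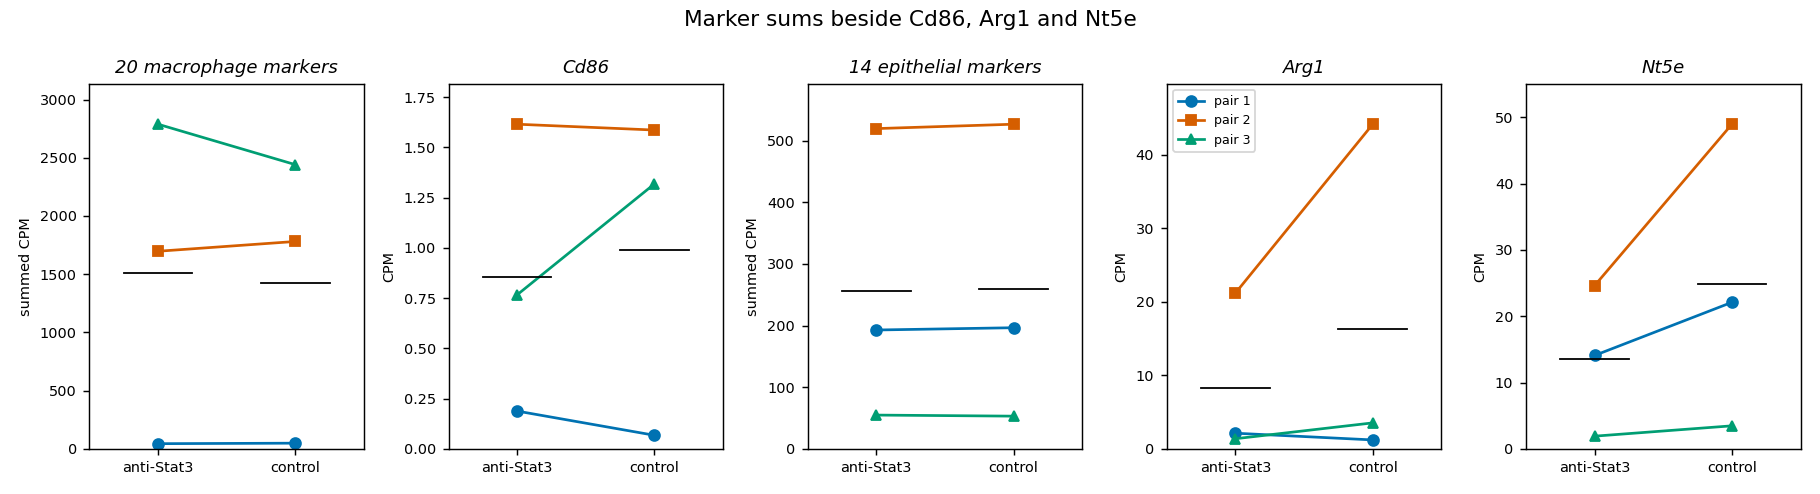
Summed CPM of 20 macrophage and 14 epithelial markers beside the CPM of Cd86, Arg1 and Nt5e (vertical axes, from 0), with anti-Stat3 libraries left and control libraries right in each panel, lines joining pairs and black bars at group means. Cd86 is lowest in pair 1, as the macrophage sum is, and Arg1 and Nt5e are highest in pair 2, as the epithelial sum is.

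Macrophage and dendritic cell transcripts were measured because CD80, CD86, arginase 1 and the nitric oxide synthase are also made by such cells. Of 19 tested macrophage markers, 0 passed in blocked DESeq2 and 0 in blocked edgeR, with 1 at an unadjusted p under 0.05 in each (8.05% and 10.8% of all genes), and their pair medians were -0.07, 0.01 and 0.24. The dendritic cell markers Flt3, Siglech and Cd209a had 0 counts in all libraries, and the 14 listed summed to 16.0, 28.5 and 63.8 CPM in anti-Stat3 libraries 1 to 3, against 16.4, 24.9 and 29.4 CPM in control libraries 1 to 3. Of the 5 that were tested, blocked DESeq2 called 1, Cd74, the invariant chain of class II molecules, where it called 1.66% of all genes. It had 2 of the 5 at an unadjusted p under 0.05, against 8.05% of all genes. Cd74 rose by 1.45 ± 0.40 (SE) in that fit (adjusted p = 0.026). Blocked edgeR called 0, against 0.0602% of all genes, with 2 at an unadjusted p under 0.05, against 10.8%. In pair 3 Cd74 had 19.93 CPM in the anti-Stat3 and 4.133 CPM in the control library, and Ciita and H2-Ab1 were higher too. Itgax there had 8.815 and 8.147 CPM, and Zbtb46 2.53 and 3.115 CPM, in the same order. In pair 2 Itgax had 4.576 CPM in the anti-Stat3 and 2.115 CPM in the control library. The part of dendritic cells in the sum was not tested. The pairs with the larger Cd274 change, 2 and 3, were those with macrophage sums of 1697 and 2788 CPM in the anti-Stat3 libraries and 1781 and 2441 CPM in the control libraries, and the part of those cells in the change was not tested. Of the rest, B cell markers summed to at most 0.336 CPM in any library, neutrophil markers to at most 2.13 CPM in anti-Stat3 and 4.33 CPM in control libraries, and endothelial markers to at most 39.0 CPM in anti-Stat3 and 26.9 CPM in control libraries.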

How the data were processed

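RNA was extracted from primary CAFs with TRIzol, selected for poly(A) and made into TruSeq libraries, per the labels' protocols. TopHat2 2.0.10, HTSeq and the mouse build mm9 are named in the submitters' processing notes. The values the authors deposited are raw counts per gene symbol, and 0 per-sample columns were left unused. Columns were matched to samples by name, which writes "sh" where the title writes "si".

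Counts were tested in R 4.3.3 with edgeR 4.0.16 (quasi-likelihood F test, TMM, filterByExpr at 10 counts and 15 in total, group as the only term) over 13284 genes, with Benjamini-Hochberg adjustment at 0.05. Alternatives used DESeq2 1.42.0 and the voom method of limma 3.58.1. Log2 CPM used a prior count of 2. Counting intervals are exact binomial at 95%. Deviations from group means correlated at 0.83, 0.82 and 0.83 between same-numbered libraries and at most -0.16 between others, so the title numbers were taken as pairs. Such deviations cancel within a group, so the low values between others follow from the high ones. The pairs were thus taken from the same counts that were then tested. An exact permutation test cannot go below 0.1 with 3 against 3 libraries, and was not used. With the group alone, the p-values measure the spread between these libraries, and with the block that of the changes over pairs. What a library number stands for is not stated, so neither is known to be a spread between mice. The fits were also run on simulated data, where a changed gene had the same true fold in every pair. Changes that differ between pairs, as that of Cd274 did, were not covered by it. The members, gene lists and alternatives were chosen with earlier results of these data known. Named genes are all members. From each further list they are the genes called in blocked DESeq2 or, with none called, the 4 with the smallest p. Others, among them Ptgs2, Havcr2 and single markers of cell types, were chosen outside these rules with their values known. The profile comparison took members whose log2 CPM averaged 1 or more. Promoter sequences are from RefSeq, which held 6 of the 10 members. Some genes that the rules name are not reported here.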

Additional observations from a re-analysis of the deposited data

How the results depend on the processing

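At an adjusted p of 0.05, edgeR with the group alone called 0 genes, edgeR with the replicate block 8, limma-voom with that block 8, DESeq2 with that block 220 and DESeq2 with the group alone 17. Leaving out control library 1 gave 40 in edgeR with the group alone, and each other single library 0. Blocked edgeR called 704 genes with pair 1 left out, 3 with pair 2 left out and 0 with pair 3 left out, and blocked DESeq2 called 432, 14 and 20. Of the members, DESeq2 with the replicate block called 2, and without pair 1 blocked edgeR called 5 and blocked DESeq2 3. These are the fits that called 220, 704 and 432 genes of the whole series. With 6 libraries the sign of each tested member's change was the same in all 7 alternatives. With a library or pair left out, the log2 change was -1.09 to 0.50 for Cd86, -1.64 to 0.089 for Nt5e, -3.23 to 1.79 for Arg1 and -4.12 to 2.49 for Nos2. The positive values of Nt5e and Arg1 came without control library 2 and that of Nos2 without control library 1, each of which breaks a pair. Those of Cd86 were 0.26 without anti-Stat3 library 1, 0.29 and 0.03 without control library 2 or 3, 0.079 in blocked DESeq2 without pair 2, and 0.19 and 0.50 in blocked edgeR and DESeq2 without pair 3. Cd274 stayed positive at 1.30 to 3.06, Lgals9 at 0.25 to 0.96 and Cd80 at 0.03 to 1.14, and Cd276 negative at -0.13 to -0.05. DESeq2 size factors, library totals alone and no filter each gave 0 calls in edgeR. A prior count of 0.5 moved no pair change of a tested member by more than its SD over pairs. The causes were not tested. Depth limits Pdcd1lg2, Ido1 and, in pair 1, Cd86.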
